A study of Homo sapiens with 8 samples.

Results

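NF-κB is a family of dimeric transcription factors built from 5 Rel subunits. In resting cells the IκB proteins hold the dimers in the cytoplasm. After a signal such as TNF, the IκB kinase (IKK) phosphorylates IκB, which is degraded, and the dimers enter the nucleus. In the alternative branch, IKKα drives the processing of the NFKB2 precursor, whose product pairs with RELB. Several inhibitors are themselves NF-κB targets and close a feedback loop. The study followed the p65 subunit in colorectal carcinoma (CRC) cells, and the transcripts of the pathway's core are described here. The 10 members were taken by gene symbol, and no measured value enters that rule, but they were chosen with earlier results of these data known. The subunits are RELA, RELB, REL, NFKB1 and NFKB2. The kinases are CHUK (IKKα) and IKBKB (IKKβ), and the inhibitors are NFKBIA (IκBα), NFKBIB (IκBβ) and TNFAIP3 (A20). All 10 were found among the 54261 genes of the table.

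Total RNA depleted of ribosomal RNA was sequenced from 8 libraries. Untreated libraries came from 2 lines labelled as normal intestinal epithelium, NCM460 and HIEC6, and from the CRC lines DLD1, HCT116 and HCT8, and the CRC lines were sequenced again under hypoxia. All were human lines at passage P5 in the same medium with 10% serum, and the oxygen level and the time under hypoxia are not given in the sources used here. Each line in each condition was 1 library, so that the replicates of a group were different lines. Without pairing, p-values therefore measure a difference against the spread between lines. Where a fit pairs the libraries of a line, the p-value refers instead to how the difference within a line varies between the lines. Library totals lay between 45519306 and 57374239 counts, and 3 counts, taken as the floor, were 0.0523 to 0.0659 CPM (counts scaled to a common library total). The label of RNA extraction names prefrontal cortex, whereas the other labels name cell lines. In the libraries 9 or 10 of 10 epithelial markers and 3 to 7 of 8 neural and glial markers had more than 3 counts. The epithelial markers summed to 5073 to 14486 CPM and the neural and glial markers to 21.9 to 299.5 CPM.

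Several features of the libraries bear on what follows. The library labelled NCM460 was closer to untreated HCT116 (Pearson r of log2(CPM + 1) across 21647 genes, 0.989) than to HIEC6 (0.876). Genes are not independent replicates, and the coefficients only describe the libraries. HIEC6 had 0.176 CPM of EPCAM and 3.03 CPM of CDH1, which define epithelial cells, against 1223 CPM of VIM, a mesenchymal intermediate filament, although KRT8 reached 4290 CPM. VIM made up most of the mesenchymal sum of 1402 CPM in HIEC6, where COL1A2 had 0.458 CPM against 7.99 CPM in NCM460, and the epithelial sum was 8085 CPM in HIEC6 and 6170 CPM in NCM460. The hypoxia label was matched by its target genes, since 12 of 12 listed genes had a log2 fold change above 0 and 9 of them rose in the fit described below. The untreated and the hypoxia libraries of a line share no run label, so run and treatment cannot be told apart. A second run label is carried by NCM460 and by the hypoxia libraries of DLD1 and HCT116, and by neither library of HCT8. In bulk RNA, fewer expressing cells and less RNA per cell cannot be told apart.

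The promoters of 3 members that were higher under hypoxia in all 3 lines are shown, because each holds a feature that the choice of members did not use, the κB motif to which NF-κB binds. They are RefSeq windows of 250 bases before and 50 after the annotated start (GRCh38.p14), read along the gene's strand, with matches to the κB consensus on either strand in capitals.
NFKBIA (chr14:35404700-35404999, minus strand): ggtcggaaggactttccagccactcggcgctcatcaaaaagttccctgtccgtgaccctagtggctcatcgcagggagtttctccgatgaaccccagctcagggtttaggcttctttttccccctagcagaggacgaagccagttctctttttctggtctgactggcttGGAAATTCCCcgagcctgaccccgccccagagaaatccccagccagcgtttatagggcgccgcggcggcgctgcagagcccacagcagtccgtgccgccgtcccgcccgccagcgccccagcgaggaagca
TNFAIP3 (chr6:137867009-137867308, plus strand): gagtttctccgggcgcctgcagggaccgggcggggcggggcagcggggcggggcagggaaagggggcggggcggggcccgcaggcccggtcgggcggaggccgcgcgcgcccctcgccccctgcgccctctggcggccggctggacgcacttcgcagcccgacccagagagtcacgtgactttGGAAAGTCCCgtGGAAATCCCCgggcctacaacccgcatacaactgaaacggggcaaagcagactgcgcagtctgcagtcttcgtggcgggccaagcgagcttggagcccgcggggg
REL (chr2:60881324-60881623, plus strand): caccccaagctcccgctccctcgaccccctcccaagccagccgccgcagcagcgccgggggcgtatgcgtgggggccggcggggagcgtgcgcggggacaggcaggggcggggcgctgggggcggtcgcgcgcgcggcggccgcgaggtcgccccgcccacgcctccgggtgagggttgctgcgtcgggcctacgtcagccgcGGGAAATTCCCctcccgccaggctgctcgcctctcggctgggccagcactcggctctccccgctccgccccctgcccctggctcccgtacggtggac
The match of NFKBIA began 81 bases before the start, those of TNFAIP3 began 67 and 55 bases before it, and in REL 2 overlapping matches began 47 and 46 bases before it. Of the 8 members with a window in the table, 6 had a match in at least 1 of their windows (NFKB1, NFKB2, NFKBIA, NFKBIB, REL and TNFAIP3). Counted by window, 7 of 13 held a match, against 5.91% of all 35116 windows of the table. RELA, the other member that was higher in all 3 lines, had no match in its 2 windows, and CHUK had none in its single window. The motif was not confined to members that were higher, since NFKB1, NFKB2 and NFKBIB had a match and were not higher in all 3 lines. Of the cores that the hypoxia-inducible factors bind, searched on both strands, ACGTG lay in 21.4% of all windows and GCGTG in 36.5%. TNFAIP3 had 2 overlapping matches to ACGTG, and none to GCGTG. REL had 3 to GCGTG and 1 window of RELA had 4, and NFKBIA had neither core. A match is a run of letters and does not show binding.

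Among the untreated lines, NFKB2 separated HCT116 and the library labelled NCM460 from the rest. The gap to the next library was smaller for RELB and CHUK, and RELB in HCT116 was closer to DLD1 than to NCM460. NFKB2 encodes the precursor p100 of the alternative branch. It (chromosome 10, 104153867 to 104162281, GRCh37) had 148 CPM in NCM460 and 137 CPM in HCT116. It had 65.9 CPM in HIEC6, 57.4 CPM in DLD1 and 53.9 CPM in HCT8. NFKB2 was thus higher in NCM460 and HCT116 than in any other untreated library. RELB, its partner (chromosome 19, 45504719 to 45541450), was also highest in these libraries, with 24.7 CPM in NCM460 and 15.8 CPM in HCT116, while DLD1 had 13 CPM, HCT8 9.99 CPM and HIEC6 6.54 CPM. CHUK, the kinase of that branch, had 105 CPM in NCM460 and 87.8 CPM in HCT116, and 55.8 to 67.6 CPM in the other untreated libraries. REL, the c-Rel subunit (chromosome 2, 61108626 to 61158747), went the other way among the CRC lines, with 12.9 CPM in HCT116 against 22.9 CPM in HCT8 and 26.8 CPM in DLD1. RELA, the p65 subunit that carries a transactivation domain (chromosome 11, 65421070 to 65430561), varied least of the 10 members over the 8 libraries, by 1.58-fold between HCT8 (50.2 CPM) and HIEC6 (79.5 CPM). Apart from NFKBIB, whose counts were very low, NFKBIA varied most, by 4.93-fold between NCM460 and HIEC6.

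**Figure D1:**
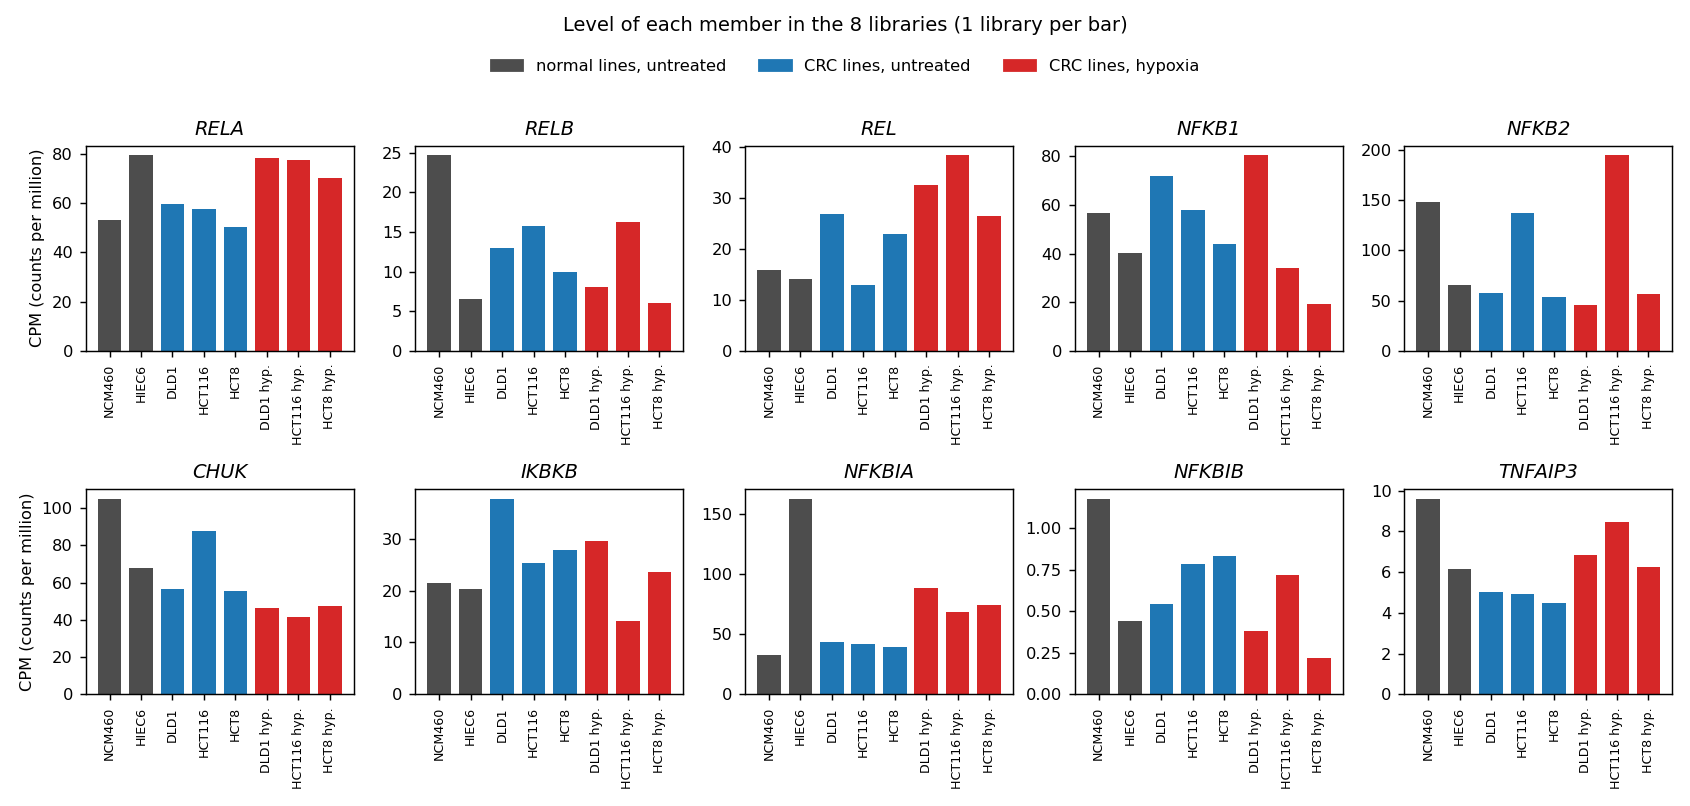
Level of each member in CPM (vertical axis from 0) in the 8 libraries, 1 bar per library, coloured by group. NFKBIA stands at 39.8 to 43.7 CPM in the untreated CRC lines and at 68.4 to 88.6 CPM under hypoxia, and NFKB2 is high in HCT116 and in the library labelled NCM460.

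Levels of different genes were compared per kilobase of exon, as the share of each subunit in the sum of the 5 subunits. The lengths are unions of annotated exons, and values with the longest annotated transcript are given where the choice turns an order or moves a value most. NFKB2 made up 54.7% of the subunit transcripts in HCT116 and 54.1% in NCM460, but 32.5% in DLD1, 36.7% in HCT8 and 36.9% in HIEC6. With the longest transcript these shares were 53.8%, 53.9%, 31.2%, 35.7% and 35.7%. RELA took 34.5% in DLD1, 35% in HCT8 and 45.6% in HIEC6, and 23.6% in HCT116 and 19.9% in NCM460. REL took 1.68% to 5.88% and was the smallest part in every library other than HCT116 and HCT8 under hypoxia, where NFKB1 was smaller with 3.72% and 4.41%. That exception rested on the length used, since with the longest transcript NFKB1 had 5.03% and 5.88% there against 3.52% and 5.04% for REL. RELB and NFKB2 together, the pair of the alternative branch, made up 54.0% ± 10.9 (SD, n = 3) in the untreated CRC lines and 57.3% ± 19.1 (SD, n = 2) in the normal lines. The difference of -3.33 percentage points was within the spread between lines (exact permutation test, two-sided, p = 1). With 3 against 2 lines this test allows no p below 0.2. It was one of 12 such exact tests of shares and ratios, and after Benjamini-Hochberg adjustment the p-value was 0.9 or more in each. The normal lines were unlike each other, since NCM460 had 70.9% and HIEC6 43.8%. The difference was -16.9 percentage points against NCM460 alone and 10.2 against HIEC6 alone.

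**Figure D2:**
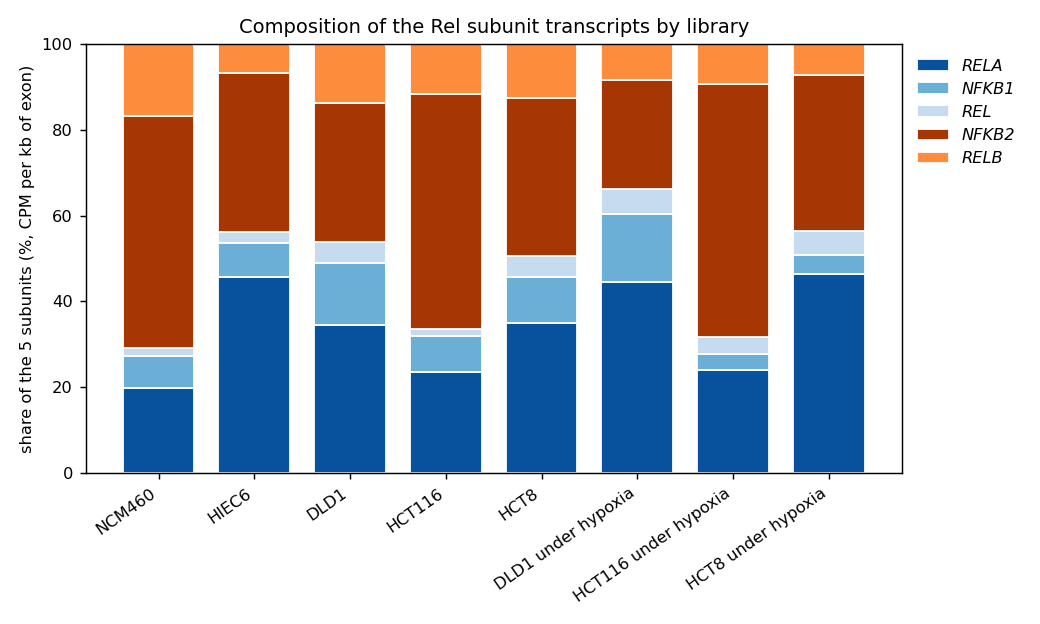
Share (%) of the 5 Rel subunits in the sum of their CPM per kilobase of exon, 1 stacked bar per library. NFKB2 takes 54.7% and 59.1% in HCT116 without and with hypoxia and 54.1% in the library labelled NCM460, and 25.4% to 36.9% in the other 5 libraries.

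Under hypoxia the inhibitor NFKBIA rose, and RELA, REL and TNFAIP3 had higher values in all 3 CRC lines without passing the test. Both kinases were lower in all 3 lines, also without passing it. The same 4 members were higher in all 3 lines in CPM by library total and after TMM scaling, which corrects library totals for composition. In the background, 16.2% of the 21045 genes tested were higher in all 3 lines in CPM and 21% after TMM. Lower in all 3 lines were CHUK, IKBKB and NFKBIB in CPM (3 of 10 members) and only the kinases after TMM (2 of 10). Those counts were close to the background of 26.4% of genes in CPM and 22.7% after TMM. The scaling matters for HCT116, where TMM raised every log2 difference by 0.34, while the shifts in DLD1 and HCT8 were 0.0025 and -0.0156. The log2 differences by line below are after TMM. No member passed edgeR's quasi-likelihood test without the cell line in the model (0 of 10, background 0% of 21045 genes), although the unadjusted p-value was under 0.05 for 1 member and 607 genes, and DESeq2 called 0 members and 55 genes. The 2 libraries of a line resemble each other, and taking the line as a block lowered the biological coefficient of variation from 0.876 to 0.295. With the block 1 of 10 members passed, and it was higher (background 0.741% of the genes tested called higher and 0.209% called lower, 0.95% in all). DESeq2 with the block called 2 of 10, both higher (background 4.54% higher and 3.38% lower, 7.92% in all). Over the members, 5 log2 fold changes were above 0 and 5 below it, with a median of -0.05, against a median of 0.03 and 52.2% above 0 over all genes tested.

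The subunits did not move as a block. RELA had 59.6 CPM in DLD1, 57.7 CPM in HCT116 and 50.2 CPM in HCT8 without treatment. Under hypoxia it had 78.4, 77.4 and 70.4 CPM in the same order. All 3 hypoxia libraries lay above all 3 untreated CRC libraries, a pattern found in 3.06% of genes in CPM and 3.97% after TMM. By line, the log2 differences were 0.40 (DLD1), 0.76 (HCT116) and 0.47 (HCT8). The fitted log2 fold change with the block was 0.57 (SE 0.18, adjusted p = 0.151 by edgeR with Benjamini-Hochberg adjustment). DESeq2 with the same block gave 0.60 and an adjusted p = 0.0349. The difference of REL did not pass the test and was largest in HCT116, where it had 12.9 CPM untreated and 38.3 CPM under hypoxia. In DLD1 REL went from 26.8 to 32.5 CPM and in HCT8 from 22.9 to 26.4 CPM. With the block its log2 fold change was 0.81 (SE 0.34, adjusted p = 0.26), and it was 0.25 with both HCT116 libraries left out.

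NFKB1, the p105 precursor of the p50 subunit (chromosome 4, 103422487 to 103538459), differed between lines under hypoxia. It went from 71.8 to 80.5 CPM in DLD1, from 57.8 to 34.3 CPM in HCT116 and from 43.9 to 19.2 CPM in HCT8. The lines therefore kept their untreated order and spread further apart, and the fitted log2 fold change was -0.45 (SE 0.26, adjusted p = 0.405 with the block). NFKB2 went from 57.4 to 45.8 CPM in DLD1, from 137 to 194 CPM in HCT116 and from 53.9 to 56.7 CPM in HCT8. The fitted log2 fold change of 0.22 (SE 0.24, adjusted p = 0.673 with the block) turned to -0.12 without the HCT116 pair. RELB went from 13 to 8.07 CPM in DLD1 and from 9.99 to 6.0 CPM in HCT8, and stood at 15.8 and 16.3 CPM in HCT116. For RELB the fitted value was a log2 fold change of -0.32 (SE 0.29, adjusted p = 0.604 with the block) and -0.71 without the HCT116 pair.

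Within the subunit sum, RELB had a smaller share in each hypoxia library than in any untreated CRC library. It went from 13.7% to 8.34% in DLD1, from 11.7% to 9.25% in HCT116 and from 12.7% to 7.19% in HCT8. In HCT116 RELB itself was not lower (15.8 and 16.3 CPM), while the subunit sum went from 44.8 to 58.9 CPM per kilobase. A background for such shares was not computed. RELA went from 34.5% to 44.5% in DLD1 and from 35% to 46.4% in HCT8, but only from 23.6% to 24.1% in HCT116. The joint share of RELB and NFKB2 was 48.6% ± 17.8 (SD, n = 3) under hypoxia and 54.0% ± 10.9 (SD, n = 3) without it. This difference of -5.38 percentage points was smaller than the spread between lines (exact permutation test, two-sided, p = 0.6, where 3 against 3 allow no p below 0.1). The test did not pair the libraries of a line, so differences between lines stayed in that spread and a change within lines was not tested. By line the joint share went from 46.1% to 33.7% in DLD1, from 66.5% to 68.4% in HCT116 and from 49.3% to 43.7% in HCT8.

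The 2 catalytic kinases were lower in each line. CHUK, which encodes IKKα (chromosome 10, 101948057 to 101989353), had 56.6 CPM in DLD1, 87.8 CPM in HCT116 and 55.8 CPM in HCT8 without treatment, and 46.4, 41.8 and 47.5 CPM under hypoxia. The untreated and hypoxia groups did not overlap in CPM, a pattern shared by 6.44% of genes in this direction, but they did overlap after TMM. The log2 fold change was -0.40 (SE 0.19, adjusted p = 0.306 with the block). IKBKB, which encodes IKKβ (chromosome 8), went from 37.7 to 29.5 CPM in DLD1, from 25.2 to 14.2 CPM in HCT116 and from 27.9 to 23.6 CPM in HCT8, with a log2 fold change of -0.34 (SE 0.19, adjusted p = 0.388 with the block). In the background, 26.4% of genes were lower in all 3 lines in CPM and 22.7% after TMM. Per kilobase, CHUK exceeded IKBKB in every library, by 2.40-fold to 7.82-fold with exon unions and by 1.55-fold to 5.04-fold with the longest transcript.

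Among the inhibitors, NFKBIA (chromosome 14, 35870285 to 35873955), which encodes the IκB that retains p65 dimers and is resynthesised after activation, gave the clearest difference. It had 43.7 CPM in DLD1, 42.3 CPM in HCT116 and 39.8 CPM in HCT8 without treatment, so the untreated CRC lines were nearly alike. Under hypoxia it had 88.6, 68.4 and 74.3 CPM. The groups did not overlap on either scale, a pattern found in 3.06% of genes in CPM and 3.97% after TMM in this direction. By line, the log2 differences were 1.02 (DLD1), 1.03 (HCT116) and 0.88 (HCT8), and the HCT8 pair carries no second run label. NFKBIA rose by a log2 fold change of 1.01 with the block (SE 0.17, adjusted p = 0.0441, edgeR with Benjamini-Hochberg adjustment). Without the block the log2 fold change was also 1.01 (SE 0.24, unadjusted p = 0.00474, adjusted p = 1). The call stood close to the threshold. DESeq2 with the block gave an adjusted p = 1.6e-06 and limma-trend with the block an adjusted p = 0.053. It was lost with the block when DLD1 (adjusted p = 0.0926) or HCT8 (adjusted p = 0.389) was left out and with library totals alone (adjusted p = 0.0912), while without HCT116 the adjusted p was 0.0123. The log2 fold change in these fits ran from 0.87 to 1.05.

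Set against its target, NFKBIA per kilobase was 1.18 times RELA in DLD1, 1.18 times in HCT116 and 1.27 times in HCT8 without treatment, and 1.82, 1.42 and 1.70 times under hypoxia. Which of the genes was higher depended on the length, since with the longest transcript the untreated ratios were 0.912, 0.912 and 0.985 and those under hypoxia 1.40, 1.10 and 1.31. The exon-union ratio was thus higher under hypoxia in each line, at 1.64 ± 0.20 against 1.21 ± 0.05 (SD, n = 3 each, exact permutation test, two-sided, unadjusted p = 0.1, the smallest that 3 against 3 allow). Here too the test did not pair the libraries of a line. TNFAIP3, which encodes the ubiquitin-editing enzyme A20 (chromosome 6, 138188351 to 138204451), went from 5.04 to 6.81 CPM in DLD1, from 4.92 to 8.45 CPM in HCT116 and from 4.48 to 6.24 CPM in HCT8. Its groups did not overlap either (background 3.06% of genes in CPM and 3.97% after TMM). The log2 fold change was 0.70 (SE 0.30, adjusted p = 0.262 with the block). An antisense gene, WAKMAR2, overlaps TNFAIP3 in the annotation, and whether strand was used in counting is not given in the sources used here.

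NFKBIB (chromosome 19, 39390340 to 39399533) could hardly be measured. It had 10 counts in HCT8 under hypoxia (exact Poisson interval at 95%, 4.8 to 18.4 counts, counting error only) and at most 58, in NCM460 (44 to 75). Its fitted log2 fold change under hypoxia was -0.67 (SE 0.65, adjusted p = 0.631 with the block), and in HCT116 the sign turned between CPM (-0.12) and TMM (0.22). The protein-coding genes within 40 kilobases were low as well, including SIRT2 at 14 to 98 counts, SARS2 at 14 to 148 and MRPS12 at 10 to 90, the last 2 encoding mitochondrial translation proteins. NFKBIB and SIRT2 share 163 bases on opposite strands. How the authors treated reads with several matches or reads shared by genes is not given in the sources used here, and its part in these low counts was not tested.

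**Figure D3:**
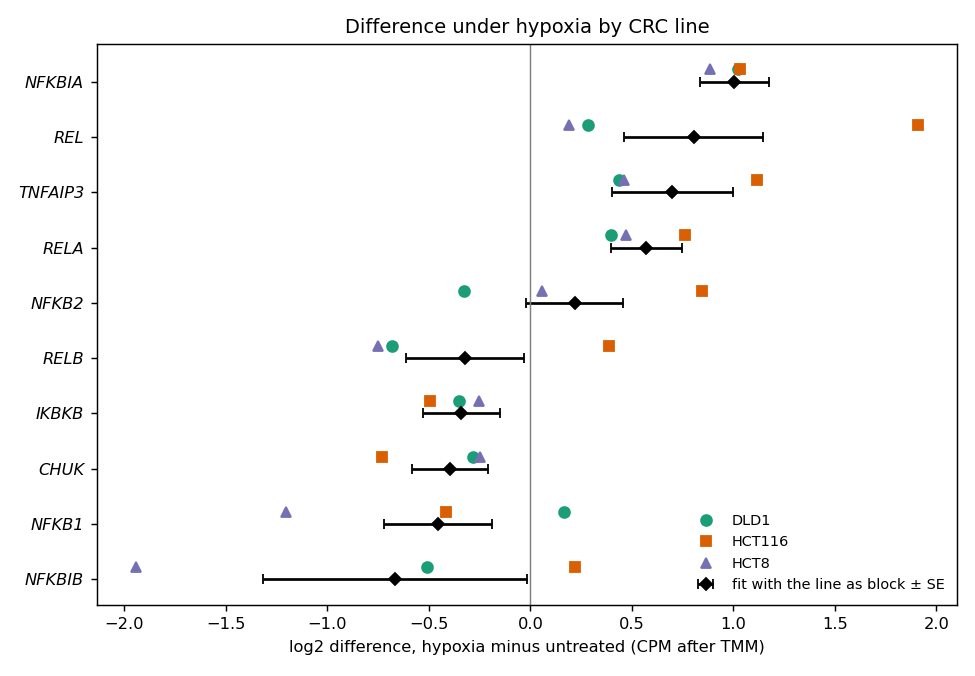
Log2 difference between hypoxia and untreated libraries after TMM (horizontal axis) for each member, as coloured points for the 3 CRC lines and as a black diamond ± SE for the edgeR fit with the line as a block. The 3 points of NFKBIA lie between 0.88 and 1.03, whereas those of NFKBIB, REL, NFKB1, NFKB2 and RELB spread widely between lines.

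Other regulators of the pathway were read from lists. Of 15 further inhibitors and signal brakes tested (16 listed), 2 rose and 0 fell with the block (background 0.741% called higher and 0.209% called lower). The list's median log2 fold change was 0.14, against 0.03 over all genes tested. The 2 that rose were genes that act beside the members. TNIP1, which encodes a partner of A20, had 83.2 CPM in DLD1, 44.1 CPM in HCT116 and 92.3 CPM in HCT8 without treatment and 193, 141 and 224 CPM under hypoxia. TNIP1 rose by a log2 fold change of 1.52 (SE 0.21, adjusted p = 0.0228 with the block). BCL3, an atypical IκB that binds p50 and p52 in the nucleus, had 9.68, 21.8 and 20.7 CPM without treatment and 19.9, 56.2 and 46.6 CPM under hypoxia. BCL3 rose by a log2 fold change of 1.33 (SE 0.21, adjusted p = 0.0359 with the block). Both were higher in 3 of 3 lines, and both calls were lost without the HCT8 pair (adjusted p = 0.244 for TNIP1 and adjusted p = 0.321 for BCL3). BCL3 was also past the threshold by neither limma-trend with the block (adjusted p = 0.0517) nor library totals with the block (adjusted p = 0.0583). Without the block edgeR called neither gene, while DESeq2 called TNIP1 (adjusted p = 0.0252) and not BCL3 (adjusted p = 0.814). NFKBIE, which encodes IκBε, had a log2 fold change of -0.45 (SE 0.22, adjusted p = 0.316), and CYLD, a deubiquitinase, one of 0.06 (SE 0.22, adjusted p = 0.919).

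None of the upstream genes passed with the block, where 0.741% of all genes tested were called higher and 0.209% lower. Counts of 0 in lists of this size are close to that background. Of 27 further kinases and adaptors tested, 0 rose and 0 fell (median -0.10, 17 of 27 below 0). MAP3K14, the kinase NIK of the alternative branch, had a log2 fold change of -0.17 (SE 0.20) and BIRC3, a ubiquitin ligase and NF-κB target, one of 1.08 (SE 0.39, adjusted p = 0.196). IKBKG, the regulatory IKK subunit NEMO, had one of -0.57 (SE 0.35), and its counts of 119 to 1446 are uncertain because it has a near-identical pseudogene, IKBKGP1, with 1 to 43 counts. Of 17 receptors tested (18 listed), 0 rose and 0 fell (median -0.27), and TNFRSF1A, the main TNF receptor, had a log2 fold change of -0.37 (SE 0.18, adjusted p = 0.314).

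No NF-κB target gene on the list passed the test with the block. Of 29 listed, 18 passed the filter on low counts, 0 rose and 0 fell (background 0.741% called higher and 0.209% called lower). For 18 genes that count is close to the background and does not show that they were unchanged. Their log2 fold changes ran from -1.32 to 3.08, with a median of 0.23 against 0.03 over all genes tested. CXCL8, the chemokine IL-8, went from 1.17 to 9.75 CPM in HCT116, from 2.30 to 1.92 CPM in DLD1 and from 2.22 to 0.483 CPM in HCT8. ICAM1, an adhesion molecule, had a log2 fold change of 0.28 (SE 0.21) and SOD2, the mitochondrial superoxide dismutase, one of -0.57 (SE 0.17, adjusted p = 0.145). RPS3, a ribosomal protein that also acts with p65 at its target genes, went from 2134 to 2039 CPM in DLD1, from 2781 to 2881 CPM in HCT116 and from 2198 to 1554 CPM in HCT8. Its log2 fold change was -0.04 (SE 0.21, adjusted p = 0.946). RPS3 and the listed chaperone genes gave 0 of 4 called, again close to the background, with all 4 log2 fold changes below 0.

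Markers of other cell types were read beside these differences. The 10 mesenchymal markers summed to 11.7 to 39.2 CPM in the untreated CRC lines and to 25 to 168 CPM under hypoxia. Their sum was higher in each line, going from 11.7 to 93.8 CPM in DLD1, from 39.2 to 168 CPM in HCT116 and from 15.3 to 25 CPM in HCT8. With the block 9 of 9 tested had a log2 fold change above 0 (median 1.58) and 1 rose. In the background, 52.2% of genes tested were above 0 and 0.741% were called higher. The sum of the 10 epithelial markers was higher in each line too. It went from 11712 to 13898.5 CPM in DLD1, from 5073 to 6678 CPM in HCT116 and from 8877 to 14486 CPM in HCT8. With the block 9 of 10 epithelial markers had a log2 fold change above 0 (median 0.44) and 1 rose. The 10 immune markers summed to 4.12 to 5.74 CPM and to 4.35 to 22.9 CPM. MS4A1 had 0 counts in all 8 libraries and PTPRC, the marker of all leukocytes, 0 to 6 counts. CSF1R had more, going from 52 to 77 counts in DLD1, from 4 to 29 in HCT116 and from 8 to 10 in HCT8. The 5 endothelial markers summed to 1.48 to 5.37 CPM and to 1.71 to 13.1 CPM, and the 8 neural and glial markers to 80.2 to 210 CPM and to 78.5 to 299.5 CPM. With the block 5 of 5 immune and 3 of 3 endothelial markers tested had a log2 fold change above 0. So had 4 of 4 neural and glial markers tested, and 0 markers of these lists passed the threshold. Their part in the differences of the members was not tested.

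The comparison of the untreated CRC lines with the normal lines gave no member past the threshold. Of the 10 members 0 passed edgeR's quasi-likelihood test (background 0% of 19964 genes), and without adjustment 0 members and 542 genes were under a p-value of 0.05. DESeq2 called 0 members and 143 genes (background 0.411% higher and 0.306% lower, 0.716% in all). Of the log2 fold changes, 3 were above 0 and 7 below it, with a median of -0.42, against -0.0048 over all genes tested. IKBKB lay above both normal lines in all 3 CRC lines (25.2 to 37.7 CPM against 20.2 CPM in HIEC6 and 21.5 CPM in NCM460), a pattern of 13.2% of genes in CPM and 9.37% after TMM. Its log2 fold change was 0.35 (SE 0.36, adjusted p = 0.999 by edgeR). TNFAIP3 lay below both normal lines in all 3 CRC lines (4.48 to 5.04 CPM against 6.14 CPM in HIEC6 and 9.60 CPM in NCM460), a pattern of 4.99% of genes in CPM and 7.66% after TMM. Its log2 fold change was -0.87 (SE 0.52, adjusted p = 0.999 by edgeR).

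The normal lines differed from each other more than the CRC lines did for several members. NFKBIA had 163 CPM in HIEC6 and 33.1 CPM in NCM460, and the 3 CRC lines at 39.8 to 43.7 CPM lay between them. Its log2 fold change of -1.46 (SE 0.70) became -2.22 without NCM460 (adjusted p = 0.177 by edgeR) and 0.24 without HIEC6. RELB had 24.7 CPM in NCM460 and 6.54 CPM in HIEC6, above and below all 3 CRC lines, and its log2 fold change of -0.40 became 0.73 without NCM460. NFKB2 changed sign as well, from -0.50 to 0.10 without NCM460. RELA was -0.45 (SE 0.35) and kept its sign, at -0.77 without NCM460 and -0.03 without HIEC6. HIEC6 was the library with 0.176 CPM of EPCAM and 1223 CPM of VIM, and NCM460 the one closest to HCT116.

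**Figure D4:**
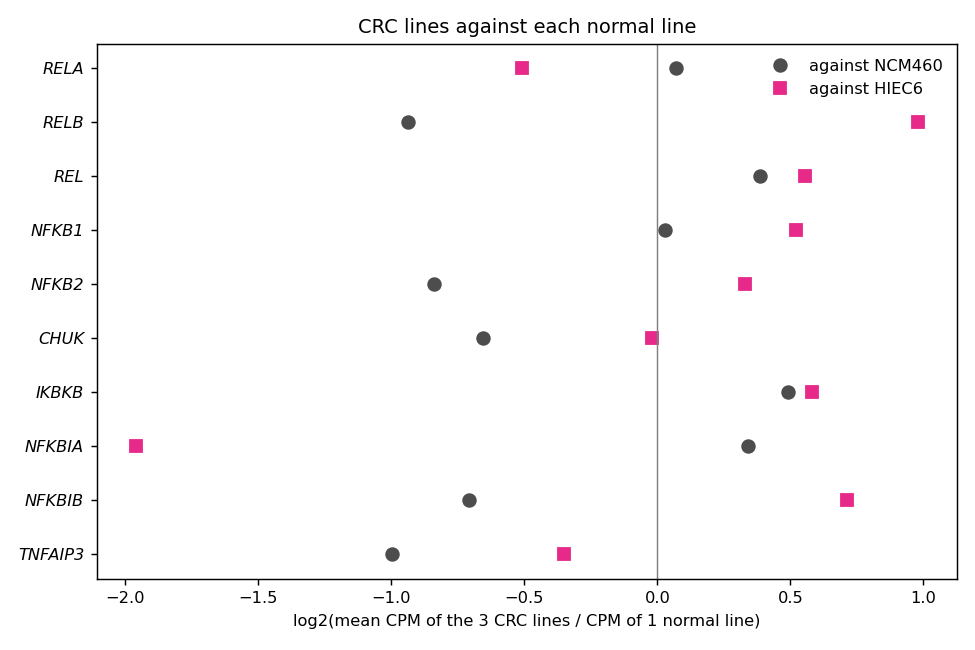
Log2 ratio of the mean CPM of the 3 untreated CRC lines to the CPM of each normal line (horizontal axis), with NCM460 as circles and HIEC6 as squares, 1 row per member. NFKBIA lies at 0.34 against NCM460 and at -1.96 against HIEC6, and IKBKB lies above 0 against both, at 0.49 and 0.58.

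Over the 8 libraries, the genes whose log2(CPM + 1) followed RELA most closely were PGK1 (Pearson r = 0.946), LDHA (0.946) and PKM (0.945), which encode glycolytic enzymes, and 10 of the 11523 genes compared had an r of 0.9 or more. RELA is high in HIEC6 and in the 3 hypoxia libraries. For NFKB2 the closest were AKAP12 (0.99), CACNA1G (0.989) and NOVA2 (0.983), with 234 genes at 0.9 or more, and for TNFAIP3 they were GPR153 (0.861), SERTAD3 (0.858) and ZNF335 (0.854), with 0 genes at 0.9 or more. These coefficients describe 8 libraries in which 3 lines occur under both conditions and NCM460 resembles HCT116.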

How the data were processed

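The authors removed ribosomal RNA and aligned clean reads to GRCh37.p13 per the paper's methods, whereas the submitters' processing notes name HISAT2 2.0.4 and GRCh38. The counter, annotation and strand setting are not given in the sources used here. The deposited table holds raw counts per gene symbol, with no normalization. Groups came from the sample titles. Levels are CPM by library total (0 columns were left aside). Fits used edgeR 4.0.16 in R 4.3.3 (TMM, quasi-likelihood test, Benjamini-Hochberg adjustment over all genes, threshold 0.05, a gene needed 10 counts or more in 2 or more libraries). The SE is the log2 fold change over the root of F. All 10 members passed the filter in both comparisons. The labels number the CRC lines alike in both conditions, and same-line libraries deviated together (correlation of deviations, 0.836 in DLD1, 0.857 in HCT116, 0.82 in HCT8), so the replicate block pairs them. Alternatives used DESeq2 1.42.0 and limma 3.58.1, and permutation tests SciPy 1.17.1. Scripts were tested on simulated counts. Exon lengths and gene positions come from GENCODE 44 lifted to GRCh37. The κB consensus searched was G, G, G, a purine, any base, A or T, a pair of pyrimidines, C, C. The members and lists were chosen with earlier results of these data known. Named from the lists are NFKBIE, BCL3, IKBKG, CYLD, MAP3K14, BIRC3, TNFRSF1A, CXCL8, ICAM1, SOD2 and RPS3, and genes past the threshold with the block, at most 5 a list. Genes most like RELA, NFKB2 and TNFAIP3 were taken by Pearson r among genes with a mean of at least 5 CPM.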

Additional observations from a re-analysis of the deposited data

Results flagged for a closer look

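Some members moved in opposite directions in different CRC lines under hypoxia, with 1 pair of libraries a line, so that the difference between lines was not tested. The log2 difference after TMM of RELB was 0.39 in HCT116 and -0.75 in HCT8, that of NFKB1 was 0.17 in DLD1 and -1.21 in HCT8, and that of NFKB2 was 0.84 in HCT116 and -0.32 in DLD1. For NFKBIB it was 0.22 in HCT116 and -1.94 in HCT8, where the hypoxia library held 10 counts.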

How the results depend on the processing

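For hypoxia, DESeq2 without the block called 55 genes. With the replicate block edgeR called 200 genes and 1 member, DESeq2 1666 genes and 2 members, and limma-trend 113 genes. Leaving out 1 line with the block gave 6 (without HCT8) to 738 genes (without HCT116), 292 without DLD1, and 0 to 1 members. Library totals with the block (172 genes, 0 members) and upper-quartile scaling with the block (215 genes, 1 member) were chosen after seeing the data. For CRC against normal, DESeq2 called 143 genes. Leaving out 1 library moved the hypoxia log2 fold change of RELB between -0.92 (without HCT116 under hypoxia) and 0.23 (without HCT8 under hypoxia), of NFKB1 between -0.86 and 0.16, and of NFKB2 between -0.77 and 1.18. NFKB2 was -0.12 with the block and without the HCT116 pair. Against the normal lines the range was -1.02 to 0.73 for RELB, -0.10 to 0.30 for NFKB1, -1.15 to 0.10 for NFKB2, -2.22 to 0.24 for NFKBIA and -0.81 to 0.44 for NFKBIB. The block joins different lines there and pairs nothing, and it gave 0.035 for RELB. The share of RELB and NFKB2 ranged from -15.3 to 2.06 percentage points under hypoxia and from -16.9 to 10.2 against the normal lines. The cause was not tested. RELA, REL, CHUK, IKBKB and TNFAIP3 kept their direction under all alternatives run in both comparisons. NFKBIB had 10 to 58 counts, so counting error was largest for it.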
